A study of Caenorhabditis elegans with 2 samples.

Results

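The regions described here are 297 clusters of polyadenylated RNA 3' ends that lay inside protein-coding genes of Caenorhabditis elegans but on the opposite strand, antisense to the gene (called the host below). They were selected on read number and position: a cluster gathers the reads within 24 nt of a local peak on 1 strand and needed at least 20 reads over both libraries together. It also had to lie within the span of a protein-coding gene of the other strand and over 300 nt from any annotated gene of its own strand. The rule picked 302 of the 15049 clusters on the nuclear chromosomes. Of these, 5 were set aside because the shift between the files' coordinates and the annotation changes inside their stretch of chromosome V, and 4 of those 5 were not antisense under the shift of the stretch before it. The ratio between the libraries had no part in the choice, but the 20 reads could all come from 1 library, so counts of members that differ between libraries are given as a description.

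The study sequenced RNA 3' ends from 2 libraries of strain JM149, with 1 library per group and therefore no replicate check and no test between groups. The input library came from unsorted nuclei, labelled as mixed tissues and total RNA. The other came from nuclei collected by fluorescence-activated sorting, labelled as intestine and nuclear RNA, so the difference in RNA type and the sort cannot be told apart. Both came from worms of mixed stages kept in liquid at 25 °C and passed through a strainer so that adults were enriched. Reverse transcription used an oligo(dT) primer of 24 T, and the amplified antisense RNA was ligated and given 12 cycles of PCR. The labels do not say which promoter drove the fluorescent mark or how many cultures were pooled. In such bulk libraries, fewer cells of a type and less RNA per cell cannot be told apart.

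Most eukaryotic messenger RNAs end where the transcript is cut and given a poly(A) tail, and an oligo(dT) primer captures that end. In the compact worm genome many neighbouring genes face each other and end close together, so a transcript that runs a little past its gene can end inside the neighbour. Other antisense ends belong to unannotated transcripts that start within or near the host, and antisense RNA pairing with a host transcript is a known substrate of small RNA pathways. An oligo(dT) primer can also bind stretches of A inside a transcript or a copied strand. No genome sequence was used here, so whether A-rich stretches underlie the ends described was not tested.

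The input library held 9243831 reads and the sorted library 4709432, of which 9220245 and 4702544 lay on nuclear chromosomes. Levels are reads per 1000000 nuclear reads (RPM), on which 3 reads, the limit a count of 0 allows, are 0.325 RPM in input and 0.638 RPM in sorted nuclei. The ratio is sorted over input RPM with an exact (Clopper-Pearson) 95% interval that covers counting error only. Of 18 intestinal markers, 17 were found. With the interval's nearer bound past 2-fold, 9 of them were higher in sorted nuclei and 0 lower, among them elt-2, the GATA factor of the gut, at 3.15 (2.43 to 4.11). The yolk protein genes vit-2 (0.728), vit-3 (0.490), vit-4 (0.497) and vit-6 (0.748) stood below input, with intervals wholly under 1. The summed level of the markers was 1.34 times that of input for intestine. It was 2.26 times for neurons, of which snb-1 alone gave 82.6 of 91.2 RPM in input and 199 of 206 RPM in sorted nuclei, and 3 of those 6 markers had under 20 reads. The summed ratio was 0.606 for body wall muscle, 0.391 for hypodermis, 0.471 for germ line, 0.675 for sperm and 0.269 for pharynx, and none of these lists was at 0. Within them, unc-54 of muscle (2.63), rol-6 of hypodermis (2.26) and gld-1 of germ line (3.15) were at least 2-fold higher by the same bound. At least 2-fold lower were 1 muscle, 5 hypodermis, 2 germ line, 2 sperm and 2 pharynx markers. The labelled tissue therefore has its markers, beside those of other cell types, and their part in the antisense ends was not tested.

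Antisense ends were sparse. A member had between 20 and 868 reads over both libraries, with a median of 33, and 210 of the 297 had under 50 reads while 33 had 100 or more. In input the members had 0 to 822 reads with a median of 20, which is 0 to 89.2 RPM and a median of 2.17. In sorted nuclei they had 0 to 387 reads with a median of 16, which is 0 to 82.3 RPM and a median of 3.40. All together they took 0.113% of input reads (0.110 to 0.115) and 0.159% of sorted reads (0.155 to 0.163). A median of 70.0% of a member's reads lay on its peak position, with reads on a median of 4 positions, and 2 members had reads on 1 position.

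Relative to input, more antisense ends were higher than lower in sorted nuclei. A cluster was called at a fold when the bound of its interval nearest 1 passed that fold. At 4-fold, 37 members were higher (12.5%), where 6.53% of all clusters were, and 12 were lower (4.04%), where 1.09% of all clusters were. With few reads the 4-fold call is harder to reach downward, because the input library is deeper. The ppt-1 end, with 25 input and 0 sorted reads, had an upper bound of 0.312. The nhr-173 end, with 0 input and 20 sorted reads, had a lower bound of 9.68. Of the 49 members with 20 to 22 reads, 9 were 4-fold higher and 0 lower, though 6 had no sorted reads. At 2-fold, 81 members were higher (27.3%) beside 15.6% of all clusters, 42 were lower (14.1%) beside 6.17%, and 174 were neither. Both directions thus held a larger share of the members than of all clusters. Of the 300 clusters outside all annotated genes, 23.3% were at least 4-fold higher and 1.0% lower, and 41.0% and 7.0% at 2-fold. The median log2 ratio of the members was 0.76, a ratio of 1.70, beside 0.07 for all clusters. It was -0.02 for the 8612 clusters at annotated protein-coding 3' ends, 0.18 for the 5835 other clusters in or near genes of their own strand and 1.38 for the 300 outside all genes. Clusters of like depth gave the same order: between 20 and 49 reads the medians were 0.85 for antisense, 0.11 for annotated, 0.26 for other sense and 1.72 for intergenic clusters. At this depth 26.2%, 9.93%, 16.6% and 42.9% of them, in that order, were at least 2-fold higher. At least 2-fold lower were 15.2%, 1.86%, 8.13% and 6.47%.

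**Figure D1:**
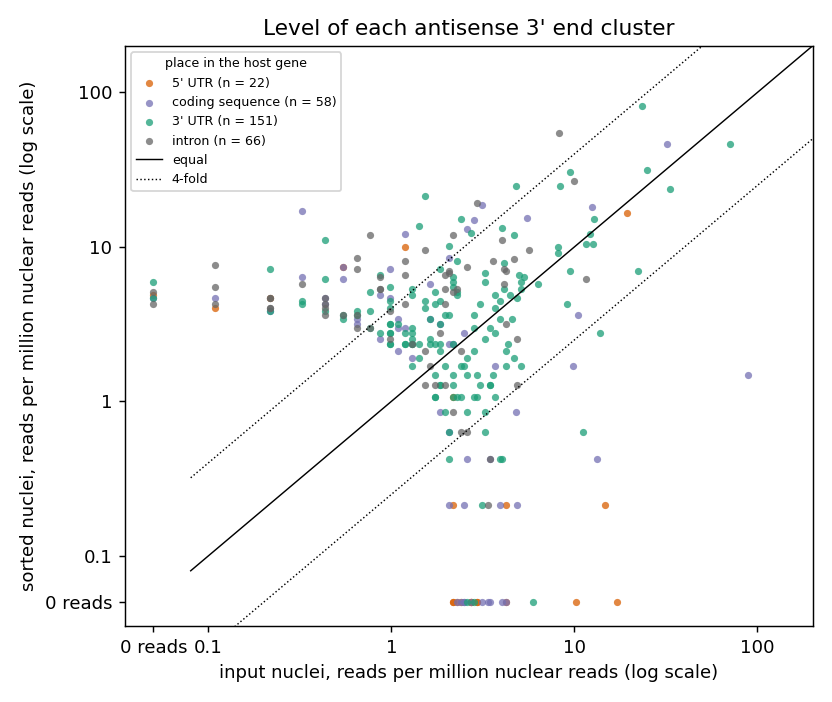
Level of each of the 297 antisense 3' end clusters in input (x axis) and sorted nuclei (y axis), in RPM on log axes, with clusters of 0 reads at a tick of their own. Points stand for clusters, colours for the place in the host and dotted lines for 4-fold; 25 clusters had no sorted reads and 6 no input reads.

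Near the thresholds of the rule, the 49 members with 20 to 22 reads had a median log2 ratio of 1.25 and the 63 otherwise qualifying clusters with 17 to 19 reads 0.54. The 14 members within 50 nt beyond the distance limit had 1.27, and the 14 clusters within 50 nt short of it had 0.22.

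Within the host, antisense ends gathered near both ends of the gene, most of all at its 3' end. Places carry an uncertainty of up to about 15 nt from the coordinate shift. Each host was cut into 10 equal segments from its start (segment 1) to its end (segment 10). Segment 10 held 136 members and segment 9 held 37, segment 1 held 33, and the segments between held 8 to 17 each. The sequence in which a cluster could qualify was spread evenly, at 4.99 to 5.80 Mb per segment, so the density was 27.3 members per Mb in segment 10, 6.52 in segment 9, 5.85 in segment 1 and 1.40 to 2.98 in the others. By annotation, 151 members lay in 3' untranslated regions (UTRs), 58 in coding sequence, 22 in 5' UTRs and 66 in introns. Exons outside coding sequence held 44.3 members per Mb, coding sequence 2.57 and introns 2.19. Per Mb of qualifying sequence the autosomes held 4.71 (chromosome V) to 6.79 (chromosome IV) and the X chromosome 3.15. No density of all clusters is set beside these, so the lower value of X is not read as particular to antisense ends.

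**Figure D2:**
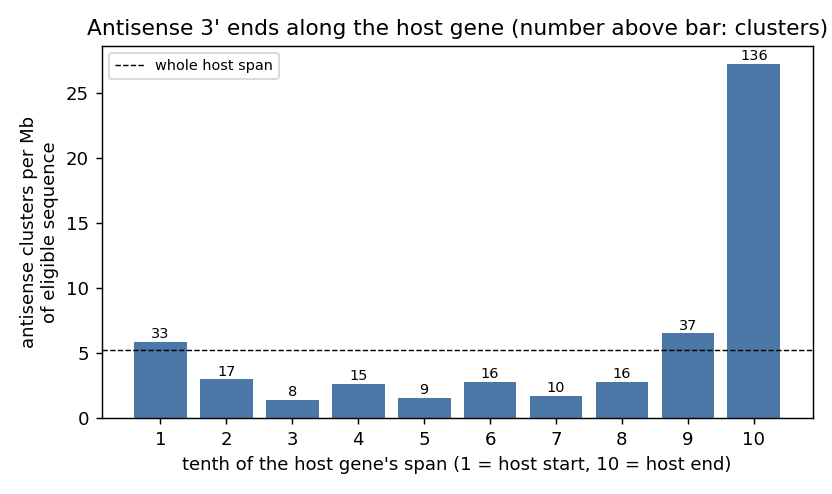
Antisense 3' end clusters per Mb of qualifying sequence (y axis) in each of 10 equal segments of the host from start to end (x axis), with the number of clusters on each bar. Segment 10 stands at 27.3 per Mb, above the 1.40 to 6.52 of the other segments.

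The members at the host's 3' end faced the host's own 3' end. In segment 10 the median distance to the nearest annotated end of the host was 84.5 nt, with 79 of 136 members within 100 nt. Over all members, 91 (30.6%) had a cluster of the opposite strand within 100 nt. These were 76 of the 136 in segment 10 and 15 of the 161 in the other segments. Of the 14747 other clusters 1920 did, but only the members had to lie inside a gene of the opposite strand. The rule itself thus favours a near opposite cluster, so no conclusion is drawn from the contrast with other clusters. Still, 174 members had no read of the host strand within 50 nt, 96 had fewer such reads than their own and 27 had as many or more. In 5 the host strand had at least 20 times as many reads within 50 nt, and none of these 5 was called at 2-fold.

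Behind the members, the nearest gene of their own strand ended 302 to 39609 nt upstream, with a median of 2495 nt. For 135 (45.5%) it ended within 2000 nt, and the upper quartile of the distance was 8218 nt. That gene was protein-coding for 219 members, a non-coding RNA gene for 39, a pseudogene for 15 and a piRNA gene for 13. The 135 within 2000 nt had a median log2 ratio of 0.54, with 39 higher and 27 lower at 2-fold, and the 162 farther away 0.80, with 42 higher and 15 lower.

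The ratio differed with the place in the host, the medians of intronic and 5' UTR ends lying apart in opposite directions. Of the 66 intronic members, 29 were at least 2-fold higher and 2 lower, 15 were at least 4-fold higher and 0 lower, and their median log2 ratio was 1.75. Their median reads were 14.5 in input and 22 in sorted nuclei, and none lacked sorted reads. Of the 22 members in 5' UTRs, 14 were at least 2-fold lower and 5 higher, with median reads of 23.5 in input and 0 in sorted nuclei. At 4-fold, 4 of them were lower and 5 higher, but with few reads this call is harder to reach downward, as described above. Of the 22, 12 had no sorted reads, so these 4-fold counts do not weigh the directions evenly. The 151 members in 3' UTRs had a median of 0.41 with 30 higher and 9 lower, and the 58 in coding sequence 0.56 with 17 in each direction. By segment, the 33 members of segment 1 had a median of -0.99 with 6 higher and 13 lower, the 128 of segments 2 to 9 had 1.24 with 47 higher and 19 lower, and the 136 of segment 10 had 0.43 with 28 higher and 10 lower. No test sets these groups apart, because both libraries are single.

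**Figure D3:**
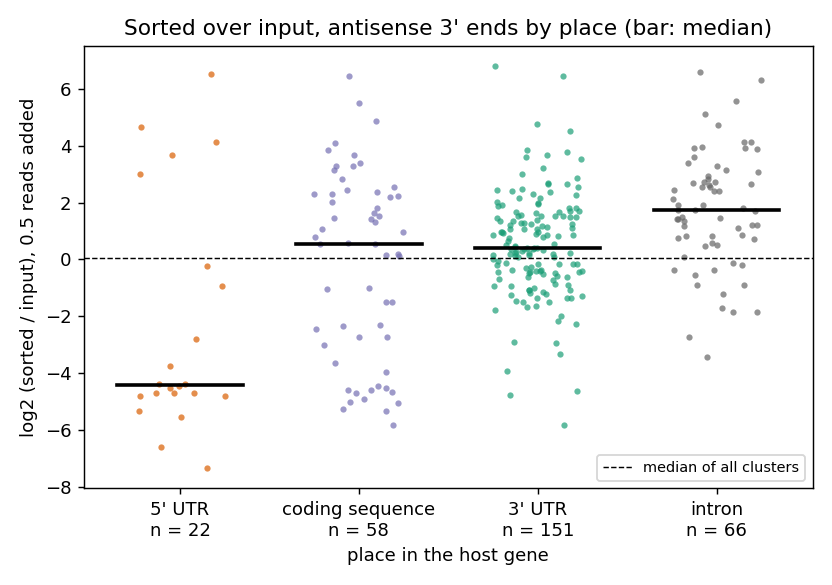
Log2 ratio of sorted over input RPM (y axis, 0.5 reads added to each library) of every antisense cluster by its place in the host (x axis). Bars are medians and the dashed line the median of all 15049 clusters, 0.07; the intronic median is 1.75, and that of the 5' UTR is set by the 0.5 reads because 12 of 22 clusters had no sorted reads.

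Ends at host starts were mostly lower in sorted nuclei. Of the 17 members within 50 nt of an annotated start of their host (a distance chosen after the values were seen), 12 were at least 2-fold lower, 2 were higher and 10 had no sorted reads. Among the other 280, 30 were lower, 79 were higher and 15 had no sorted reads. Of the 25 members with no sorted reads, 12 lay in 5' UTRs, 10 in coding sequence, 3 in 3' UTRs and 0 in introns, and 21 had no read of the host strand within 50 nt. They had 20 to 158 input reads.

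Of the 17 ends at host starts, the one with the most reads lay over rpl-22, which encodes a protein of the large ribosomal subunit. Its antisense end, on the minus strand of chromosome II at 5055600 in the files' coordinates, lay in coding sequence 5 nt from a host start. It had 822 reads in input (89.2 RPM) and 7 in sorted nuclei (1.49 RPM), for a ratio of 0.0167 (0.00669 to 0.0346). This was the highest input level of any member, spread over 23 positions with 22.1% of reads on the peak, while rpl-22 sense reads went from 10671 to 4327, a ratio of 0.795 (0.767 to 0.824). The same pattern was seen over rps-18, a gene of the small ribosomal subunit, where the end at 14825643 of chromosome IV, minus strand, 1 nt from the host start, had 158 input reads on 14 positions and 0 sorted reads. Its ratio had an upper bound of 0.0463, beside a host at 21284 and 8144 reads and 0.750 (0.731 to 0.770). Each of these ribosomal clusters would fail to qualify with the coordinate shift of the 0.5 Mb stretch before it, though not with that of the stretch after it.

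A pair of other strongly lower ends also lay over abundant messages. In the 5' UTR of aldo-2, a fructose-bisphosphate aldolase gene of glycolysis, the end at 5876276 of chromosome III, plus strand, had 135 reads in input and 1 in sorted nuclei, at 0.0145 (0.000365 to 0.0823). The host went from 11441 to 5378 reads at 0.922 (0.892 to 0.952). Over try-14, named for trypsin-like proteases, the end at 7495524 of chromosome X, plus strand, 15 nt from the start, had 94 input and 0 sorted reads, an upper bound of 0.0785. Here the host was lower as well, at 17072 and 1907 reads, 0.219 (0.209 to 0.230). Over H29C22.1, in coding sequence at 9311156 of X, 123 reads in input stood beside 2 in sorted nuclei, at 0.0319 (0.00382 to 0.118), and this host was less read, with 198 and 39 reads at 0.386 (0.267 to 0.547).

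Further strongly lower ends lay over hosts of fewer reads, most of them away from a start. Over wve-1, which encodes a WAVE protein of actin assembly, the 3' UTR end at 11924807 of chromosome I, plus strand, went from 103 reads in input to 3 in sorted nuclei, at 0.0571 (0.0116 to 0.172). Its host moved the other way, from 64 to 117 reads, at 3.58 (2.62 to 4.94). Over F07C6.4, 55 input and 0 sorted reads (upper bound 0.136) lay in the 3' UTR at 12829630 of IV, with the nearest gene of the same strand 39609 nt behind. B0252.5, in the 5' UTR 47 nt from a start, and C18D11.1, in coding sequence 1788 nt from one, each carried 39 input and 0 sorted reads (upper bound 0.195).

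Over F14F9.2 and ppt-1 the sense and antisense ends went in opposite directions. The F14F9.2 end at 5144853 of chromosome V, minus strand, 28 nt from the start, had 37 input and 0 sorted reads (upper bound 0.206), while the host had 11 and 81 reads, a ratio of 14.4 (7.66 to 30.06). The end over ppt-1, a palmitoyl-protein thioesterase gene of the lysosome, lay 3 nt from the start at 6626324 of V, plus strand, with 25 input and 0 sorted reads (upper bound 0.312). The ppt-1 message had 141 reads in input and 1116 in sorted nuclei, at 15.5 (13.01 to 18.6).

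Of the 37 members at least 4-fold higher, 15 lay in introns, 9 in 3' UTRs, 8 in coding sequence and 5 in 5' UTRs. Over math-4, of the MATH-domain family, the coding-sequence end at 1779939 of chromosome II, plus strand, had 3 reads in input and 80 in sorted nuclei, at 52.3 (17.3 to 259). The nearest gene behind it was math-3, whose end lay 1391 nt upstream and which was itself at 60 and 196 reads, 6.41 (4.77 to 8.70). Such near-identical families are uncertain here, since how reads of several places were handled is not given in the sources used. In an intron of itx-1, a neurexin-like gene, the end at 2808608 of I, minus strand, had 1 read in input and 36 in sorted nuclei, at 70.6 (11.9 to 2864). The host was also higher, with 7 and 44 reads and 12.3 (5.51 to 32.4).

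Of the 10 members with the highest lower bounds, 6 had no input reads, and for these the bound alone is given. Over cand-1, which encodes a regulator of cullin ubiquitin ligases, 28 sorted reads in the 3' UTR at 16814479 of V, minus strand, gave a lower bound of 13.9, while the host stood at 0.910 (0.835 to 0.991). An intron of the calmodulin-like gene cal-4 held 24 sorted reads at 10522931 of IV (lower bound 11.8), with the host lower at 0.265 (0.157 to 0.424). The host sum of cal-4 may include reads of another gene on its strand. The C-type lectin gene clec-140 carried 23 sorted reads (11.3), cbp-2 and the secreted-protein gene scl-12 22 each (10.7), and an intron of the nuclear hormone receptor gene nhr-173 20 (9.68). The scl-12 end was the nearest of these to a gene behind it, at 350 nt.

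The other 2 of those 10, over manf-1 and cest-12, had 4 and 2 input reads. The end over manf-1, the worm counterpart of a secreted factor of the endoplasmic reticulum, lay at 2927698 of IV, plus strand, with 52 sorted reads, at 25.5 (9.38 to 97.0). Its host was also higher at 4.40 (3.52 to 5.53). Over the carboxylesterase-like gene cest-12 the end at 12101741 of III, plus strand, had 2 and 34 reads, 33.3 (8.54 to 286), beside a host of 2 and 20 reads.

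The 12 members with the most reads over both libraries ran from strongly lower, with rpl-22, to several-fold higher in sorted nuclei. Over nog-1, named for a nucleolar GTPase that yeast needs to build ribosomes, the 3' UTR end at 396281 of chromosome IV, minus strand, had 649 input and 219 sorted reads, 70.4 and 46.6 RPM, a ratio of 0.662 (0.565 to 0.772). This was close to its host, at 2545 and 805 reads and 0.620 (0.572 to 0.672), a sum that may include reads of another gene on the host strand. The nearest gene of the antisense end's own strand, the MAP kinase gene kgb-1, ended 9340 nt behind it. Over W03C9.2 the end at 11965137 of II, minus strand, had 217 input and 387 sorted reads, 23.5 and 82.3 RPM, the highest sorted level of any member, with a ratio of 3.50 (2.95 to 4.15). It lay 302 nt past the end of rab-7, a GTPase gene of late endosomes, just beyond the distance the rule sets. Reads of rab-7 itself were 21 and 44, a ratio of 4.11 (2.39 to 7.27), and those of the host W03C9.2 were 82 and 25, 0.598 (0.366 to 0.945).

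Over mut-16, which builds the germ granules where small interfering RNAs are amplified, the end at 10085700 of chromosome I, minus strand, lay 1 nt from the host's own end. It had 229 and 148 reads, a ratio of 1.27 (1.02 to 1.56), with 1741 host-strand reads within 50 nt. Over npp-7, a nuclear pore gene, the end at 5697374 of I had 307 and 111 reads, 0.709 (0.565 to 0.884), more than the 90 and 61 of the host. Over the nudix hydrolase gene ndx-2 the end at 2662979 of V, plus strand, had 204 and 33 reads, 0.317 (0.213 to 0.460), and the host 8 and 3. At both of these loci the antisense end had more reads than all sense ends of the host together.

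Further deep members lay over uncharacterised genes. ZK1248.11 had 295 and 218 antisense reads in coding sequence at 5828497 of II, a ratio of 1.45 (1.21 to 1.73), and Y4C6A.3 had 178 and 78 in its 5' UTR at 5456006 of IV, 0.859 (0.650 to 1.13). ZK632.9 had 87 and 144 in its 3' UTR at 9824850 of III, 3.25 (2.47 to 4.29), and F27C1.6 115 and 85 in coding sequence at 5425173 of I, 1.45 (1.08 to 1.93). Their intervals overlapped 1 only for Y4C6A.3.

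Among intronic members, the deepest lay in znf-474, a zinc-finger gene, at 12150159 of chromosome X, minus strand. It had 76 input and 258 sorted reads, 8.24 and 54.9 RPM, a ratio of 6.66 (5.14 to 8.71), beside host reads of 62 and 17, 0.538 (0.295 to 0.931). An intron of F19B2.7, on chromosome V at 20147370, minus strand, held 92 and 126 reads, 2.69 (2.04 to 3.55), and the host had no read in either library. In nmat-1, a gene of NAD synthesis, the intronic end at 12015284 of X, plus strand, had 27 and 91 reads, 6.61 (4.26 to 10.6), and the host 2 in each. C03A7.13 went the other way, with 106 and 29 reads at 5191084 of V, 0.536 (0.343 to 0.815), while its host was higher at 6.54 (4.39 to 9.96).

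The 297 members fell in 286 hosts, and 11 hosts carried 2 each and none 3, while 5 members lay opposite 2 overlapping genes and are listed under 1 of them. These pairs, named after their values were seen, did not always act alike. In cpl-1, a cathepsin L protease gene, ends 79 nt apart in the 3' UTR had 25 and 58 reads at 16592609 of V, 4.55 (2.80 to 7.59), and 75 and 43 at 16592688, 1.12 (0.754 to 1.66). In W09G3.6 the 3' UTR end at 13814826 of I had 34 and 5 reads, 0.288 (0.0880 to 0.741), and the intronic end at 13815728 1 and 20, 39.2 (6.27 to 1625). In garr-1, named for a core protein of small nucleolar RNA particles, both ends were higher, at 5.56 (2.09 to 17.2) and 14.2 (4.99 to 55.7).

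Set against the sense reads of the host, summed over its span and 300 nt beyond, antisense ends were a minor product at most loci and the main one at some. The median antisense share of a locus was 19.1%. In 71 loci the antisense end had more reads than the whole host, 43 hosts had under 20 sense reads and 6 had none, whereas 59 members lay over hosts of at least 1000 reads. Over act-5, the actin of intestinal microvilli (named after its values were seen), the 3' UTR end at 13604406 of chromosome III had 118 and 71 reads, 1.18 (0.866 to 1.60), while the sense reads were 5309 and 8226 RPM, 1.55 (1.53 to 1.57).

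The ratio of the antisense end followed that of its host only loosely. In 173 pairs with a host of at least 20 reads and no other gene on its strand within the span, the interval of the antisense ratio lay above that of the host in 43, below it in 40 and overlapped it in 90. Both log2 ratios had the same sign in 104 pairs, and across pairs Pearson's r was 0.31 and Spearman's rho 0.32, values that describe clusters sharing the same 2 libraries and their scaling. The nearest gene behind the member was compared for only part of the 219 members for which it was protein-coding. With that gene, r was 0.29 and rho 0.26 over 67 members that lay within 2000 nt past it. Over 71 members farther away they were -0.00022 and -0.029. Among these 173 pairs, the members standing farthest above their host were cand-1, Y62E10A.13, sos-1 and sftd-3. The intronic end of Y62E10A.13 had 1 and 26 reads, 51.0 (8.37 to 2090), with the host at 1.01 (0.870 to 1.17). That of sos-1, a Ras exchange factor gene, had 11 and 31 reads, 5.53 (2.70 to 12.2), with the host at 0.227 (0.155 to 0.323). That of sftd-3 had 4 and 22 reads, 10.8 (3.66 to 43.0), with the host at 0.438 (0.403 to 0.474).

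**Figure D4:**
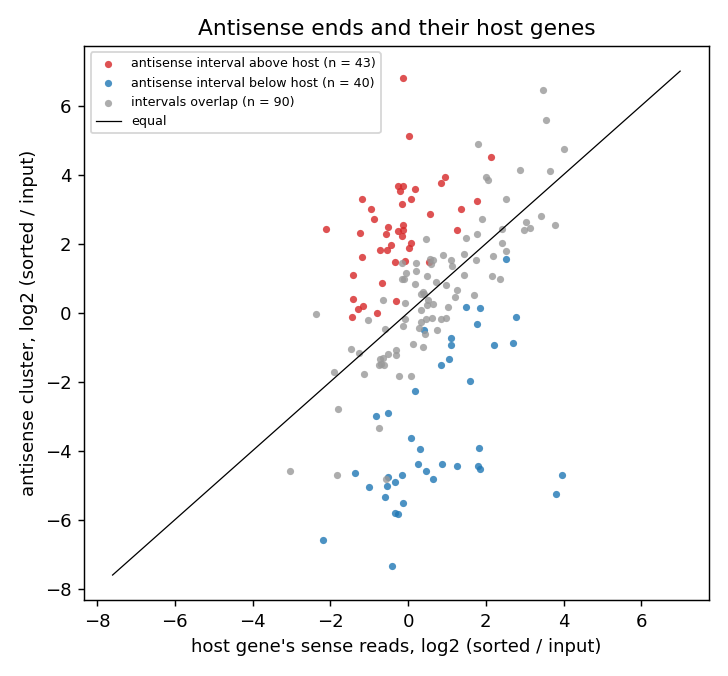
Log2 ratio of sorted over input for the host's sense reads (x axis) and for the antisense cluster (y axis) in 173 pairs whose host had at least 20 reads and no other gene on its strand. Each point is a pair; Pearson's r is 0.31, and points lie in all quadrants.

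By gene family, hosts were 1.43% of the 19973 protein-coding genes. Over all members, 27.3% were at least 2-fold higher and 14.1% lower, and the family counts below rest on too few ends to compare with these shares. C-type lectin genes gave 5 of 240, and their antisense ends were at least 2-fold higher in 3. MATH and BATH genes gave 3 of 73, with 2 higher, and transthyretin-like ttr genes 3 of 58, with none called. Ribosomal protein genes gave 4 of 78, of which 2, the rpl-22 and rps-18 ends described above, were lower and 2, over rps-20 and rpl-11.2, were not called. The 1154 chemoreceptor genes of the sr and str families, the 322 fbx genes, the 67 ugt genes and the 72 histone genes gave none. Of 269 nuclear hormone receptor genes 1 was a host, nhr-173.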

How the data were processed

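Per the labels' protocols, poly(A) RNA was primed with oligo(dT), amplified and sequenced from its 3' ends. The authors deposited unscaled counts, the number of reads at each position of a strand; besides these only the deposited position was used. Per the submitters' processing notes TopHat was run (version not given). Not given in the sources used here are the genome build, the filters and how multiply mapped or A-rich reads were treated. Positions are printed as the files have them.

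Reads on the 6 nuclear chromosomes were clustered per strand around the highest position and the free positions within 24 nt. In each of 203 windows of 0.5 Mb the commonest offset between positions with at least 10 reads and annotated WBcel235 protein-coding 3' ends was taken. In 200 windows it lay between -120 and 6 nt, and in the last 3 of chromosome V at -4611 or -4612 nt. A median of 41.8% of positions lay within 3 nt of it, against 0.182% at an average offset, and neighbouring windows otherwise differed by at most 15 nt, so a place in a host is good to about that. The offset assigned clusters to genes and places.

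Ratios are sorted over input RPM with exact 95% intervals of the split of a cluster's reads, and log2 ratios had 0.5 reads added to each library. Intervals and floors cover counting error only, as reads copied by PCR and not marked by molecular identifiers can share a molecule. The 1 library per group allowed no p-value and no replicate check. Members, lists and alternatives were chosen with earlier results of these data known. Clusters named were the 12 deepest, the 10 with the highest lower and the 10 with the lowest upper bound, up to 4 deepest per place class, and the 4 farthest above and below their host among hosts of at least 20 reads with no other gene on their strand; others are said to be named after their values were seen. The procedure was tested on simulated data. Alternatives covered scaling (edgeR 4.0.16 TMM, DESeq2 1.42.0 median of ratios, reads in clusters), read minimum, distance, cluster width, offsets and positions counted once. Python 3.11.15, numpy 2.4.6, pandas 2.3.3, scipy 1.17.1, matplotlib 3.10.9 and R 4.3.3 were used.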

Additional observations from a re-analysis of the deposited data

How the results depend on the processing

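Of 130 values compared over 15 alternatives, 83 stayed within 1.5 times (counts) or the interval of the reported value (shares, median) and 47 moved; the median log2 ratio lay between 0.37 and 0.89 in all of them. Scalings shifted every log2 ratio by -0.08 to 0.01; under TMM and median of ratios the F19B2.7 end lost its 2-fold call (log2 1.35 each). Clusters reaching 12 or 50 nt from the peak, and leaving out ends with 20 times as many host-strand reads nearby, moved none. A minimum of 10 reads gave 768 ends, 95 at least 4-fold and 187 at least 2-fold higher, shares of 0.148% of input and 0.221% of sorted reads, 69.8% in exons and 38.8% within 2000 nt past a gene. A minimum of 50 reads gave 87 ends, 9 and 26 higher and 7 and 10 lower at 4-fold and 2-fold, and shares of 0.0758% and 0.0999%. A distance over 1000 nt gave 22 and 52 higher, 6 and 26 lower, shares of 0.0698% and 0.104% and 25.6% within 2000 nt. Over 2000 nt left 127 ends, 13 and 32 higher, 4 and 10 lower, shares of 0.0481% and 0.0681% and, by construction, 0% within 2000 nt. Windows with an offset of at most 5 nt held 65 ends, 6 and 13 higher, 0 and 6 lower, shares of 0.0276% and 0.0346% and 38.5% within 2000 nt. Requiring the offsets of both neighbouring windows left 0.101% of input reads, chiefly by losing the rpl-22 end. Keeping ends read at 3 or more positions gave shares of 0.105% and 0.145%. Each position counted once gave 0 higher and 0 lower at 4-fold, 0 and 1 at 2-fold and a median log2 ratio of 0.37, a setting in which few positions cap the ratio; 28 named ends lost their call and the nmat-1 end reversed to -0.12. Keeping the 5 set-aside clusters, an alternative chosen after seeing the data, gave shares of 0.179% and 0.208%. No paired analysis was possible because each group has 1 library, and none could be left out. At a median of 33 reads, an end had to differ several-fold to be called, and with few reads a lower call was harder to reach than a higher one.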
